A study of Homo sapiens with 6 samples.

Results

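The genes of transforming growth factor β (TGF-β) and bone morphogenetic protein (BMP) signalling were examined in cells treated with polydatin (PD). A list of 47 genes was taken by symbol, comprising ligands, proteins that store or trap them, receptors, SMAD proteins, their regulators and the ID genes. Of these, 46 had a row in the table of 28563 genes, and 40 were tested because their FPKM averaged 0.5 or more across the 6 libraries. FPKM are fragments counted on a gene relative to the length of its exons and to the depth of the library. The study treated HepG2, an established line from a human liver cancer, with PD, a glucoside of resveratrol, or with DMSO, the vehicle, and asked which genes responded. Per the labels PD was given at 336 µM for 24 h, whereas the paper states a lower dose, and each treatment had 3 dishes with 1 poly(A) RNA library each. The dishes were divided at random from replated cells of a single line, so p-values measure the spread between these dishes. Values after ± are SD over 3 libraries for FPKM and shares, and SE for log2 fold changes.

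TGF-β, activins and BMPs are secreted dimers that bring together type I and type II receptor kinases on the cell surface. The activated type I receptor phosphorylates receptor-regulated SMADs, SMAD2 and SMAD3 for TGF-β and activins and SMAD1 and SMAD5 for BMPs, which join SMAD4 and act on genes in the nucleus. In liver, TGF-β is known for limiting hepatocyte growth and for driving fibrosis, and BMP6 and BMP2 for controlling hepcidin and so the iron supply.

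Libraries held 16763318 to 17274927 fragments with DMSO and 16308476 to 18071632 with PD, as worked back from the steps of the FPKM, and none stood apart in depth. The cells carried few of the markers of the labelled cell type. Of 20 hepatocyte markers, 10 had a row, and of these only CPS1 and RBP4 reached 1 FPKM in any library, while APOA1, SERPINA1, TF, FGA, FGG, HNF4A and AMBP stayed at 0.172 FPKM or below. The cells are therefore called cells labelled HepG2 here. Summed over the hepatocyte list, 222 to 229 FPKM were measured with DMSO and 107 to 113 FPKM with PD, almost entirely from CPS1. Epithelial markers were mixed, with KRT8, KRT18, CLDN7 and EPCAM reaching 1 FPKM among 7 listed and sums of 113 to 122 FPKM with DMSO and 126 to 134 FPKM with PD. EPCAM averaged only 1.17 FPKM with DMSO and 1.03 FPKM with PD. CDH1 was at 0.127 ± 0.0278 FPKM with DMSO and 0.0343 ± 0.0104 FPKM with PD, ESRP1 stayed at 0.0377 FPKM or below, and KRT19 had no row. Fibroblast or stellate cell markers summed to 5.04 to 5.83 FPKM with DMSO and 5.90 to 6.35 FPKM with PD. COL1A1, PDGFRB and ACTA2 reached 1 FPKM among 10 listed, ACTA2 only with PD. ACTA2 was at 0.512 ± 0.0761 FPKM with DMSO and 1.05 ± 0.147 FPKM with PD. Genes on the opposite strand, ACTA2-AS1 and FAS, share 36.0% of its exon bases, so its value is uncertain. No endothelial marker of 5 and no leukocyte marker of 6 reached 1 FPKM. The part of these markers in the results below was not tested, and in bulk RNA fewer cells of a type and less RNA per cell cannot be told apart.

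Called members were found among the ligands, receptors, SMADs and nuclear regulators. The ligand genes TGFB1 and BMP8B were upregulated more than 2-fold, and FST, which encodes the activin trap follistatin, was downregulated more than 2-fold. The other members changed by at least 1.5-fold were the receptor gene TGFBR3, the ligand gene BMP2 and the inhibitor genes FSTL3, NOG and SMAD6, which were lower, and SKI, ID1 and ID2, which were higher. Among the 40 tested members, 11 were called higher and 16 called lower, and 13 were not called. BMPR1B and ID2 passed the minimum of 0.5 FPKM only through 1 treatment, and 6 members lay under it. A call needed an adjusted p of 0.05 or less (limma on log2(FPKM + 1), Benjamini-Hochberg over 14400 genes). PD moved a large part of the transcriptome, as 58.1% of tested genes passed the same rule, 31.9% higher and 26.2% lower, so the number of members called is read against this. A change of at least 1.5-fold on the same scale was found for 11 members, 5 higher and 6 lower, that is 27.5% of those tested against 16.2% of all genes tested (9.45% higher and 6.71% lower). Genes that also passed 2-fold are called DEGs, and these were 2 members upregulated and 1 downregulated, or 7.5% against 3.61% of all genes (2.04% upregulated and 1.57% downregulated). The PD and DMSO libraries did not overlap for 30 members, 14 with PD above and 16 with PD below, a share of 75% against 65.4% of all genes (35.6% above and 29.9% below). The median log2 fold change was -0.063 over the tested members and 0.012 over all genes tested, and the median size regardless of sign was 0.38 and 0.27. Fold changes on this scale understate the change of genes of low FPKM.

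**Figure D1:**
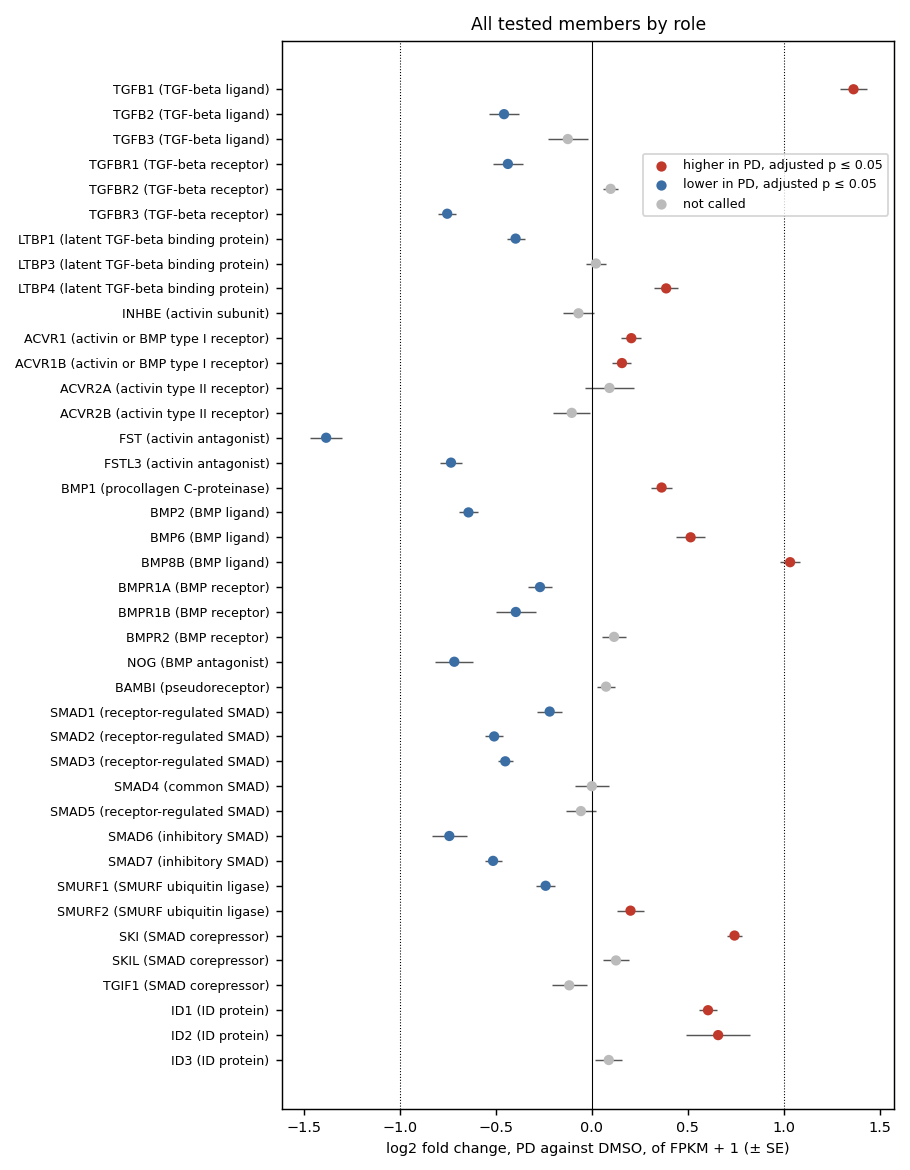
Log2 fold change of FPKM + 1 (x axis, PD against DMSO) of the 40 tested members, ordered by role from top to bottom. Points are estimates with SE bars, red and blue mark genes called higher and lower, grey marks genes not called, and dotted lines mark 2-fold. TGFB1 and BMP8B lie beyond the upper line and FST beyond the lower one.

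The TGF-β ligands moved apart. TGFB1 (chr19:41301587-41353922 on GRCh38, minus strand) encodes the most widely expressed TGF-β isoform. Its level was 7.88, 7.55 and 7.76 FPKM with DMSO and 20.4, 20.1 and 24.0 FPKM with PD. Every PD library was above every DMSO library, the ratio of the mean FPKM was 2.78, and TGFB1 was a DEG (log2 fold change 1.36 ± 0.068, adjusted p = 6.92e-06). The fragments behind these levels were 410 to 441 per DMSO library and 1143 to 1267 per PD library. HNRNPUL1, on the opposite strand, overlaps 6.59% of the exon bases of TGFB1 and was measured at 42.2 ± 0.781 FPKM with DMSO and 42.6 ± 1.73 FPKM with PD (SD, n = 3; adjusted p = 0.774, limma). TGFB2 fell from 1.79 ± 0.147 to 1.03 ± 0.0183 FPKM (log2 fold change -0.46 ± 0.076, adjusted p = 0.00162), with all PD libraries below all DMSO libraries. Its exons share 11.6% of their bases with TGFB2-AS1 on the opposite strand and 22.7% with TGFB2-OT1 on the same strand, so its value is uncertain. TGFB3 was at 1.19 ± 0.124 FPKM with DMSO and 1.01 ± 0.208 FPKM with PD, its libraries overlapped, and the interval of its log2 difference was -0.37 to 0.12. TGFB1 thus made up 72.2% ± 0.480 of the summed FPKM of the TGFB genes with DMSO and 91.3% ± 1.18 with PD.

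**Figure D2:**
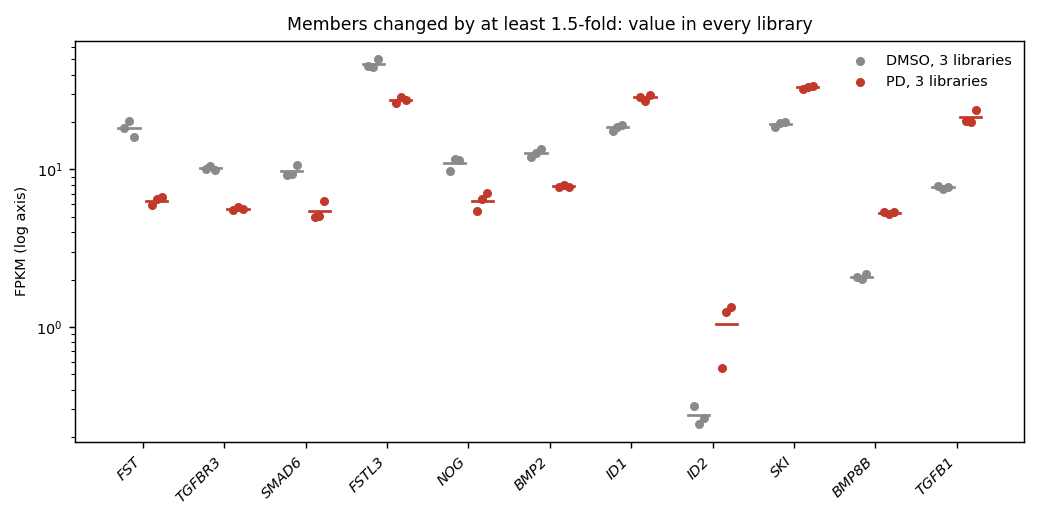
FPKM (log axis) in each of the 3 DMSO libraries (grey) and 3 PD libraries (red) of the 11 members changed by at least 1.5-fold, ordered by log2 fold change, with lines at the means. The groups are apart for each of these genes, and ID2 lies at the lowest level and has the widest PD group.

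Of the TGF-β receptors, TGFBR1 and TGFBR3 fell and TGFBR2 was not called. TGFBR3 (chr1:91680343-91906335, minus strand) encodes betaglycan, a coreceptor that presents TGF-β, TGF-β2 above all, to the type II receptor. It was measured at 10.1, 10.6 and 9.85 FPKM with DMSO and 5.50, 5.77 and 5.60 FPKM with PD. All PD libraries lay below all DMSO libraries, and the mean was 1.81-fold lower (log2 fold change -0.75 ± 0.046, adjusted p = 1.51e-05). TGFBR1, the type I receptor, fell from 14.3 ± 1.04 to 10.3 ± 1.08 FPKM (log2 fold change -0.44 ± 0.080, adjusted p = 0.00253). For TGFBR2, the type II receptor, 22.03 ± 0.689 FPKM with DMSO and 23.6 ± 0.463 FPKM with PD were measured, with all PD libraries above all DMSO libraries but an adjusted p of 0.0558, and an unadjusted interval of 0.010 to 0.19 in log2. Without DMSO replicate 1, TGFBR2 was called higher (log2 fold change 0.12, adjusted p = 0.0419). The share of TGFBR1 in the summed FPKM of TGFBR1 and TGFBR2 was 39.3% ± 1.33 with DMSO and 30.3% ± 2.21 with PD.

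Some of the latent TGF-β binding proteins hold newly made TGF-β in the matrix, and the genes of this family too moved apart. LTBP1 fell from 14.1 ± 0.469 to 10.5 ± 0.471 FPKM (log2 fold change -0.40 ± 0.047, adjusted p = 3.02e-04). LTBP4 rose from 11.7 ± 1.03 to 15.6 ± 0.438 FPKM (log2 fold change 0.39 ± 0.063, adjusted p = 0.00143). LTBP3 was at 10.9 ± 0.676 FPKM with DMSO and 11.1 ± 0.320 FPKM with PD and was not called, and the sign of its difference changed with the scaling of the libraries. LTBP2 was under the minimum, with 13 to 31 fragments per library.

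Of the activin side, the antagonists changed most. FST (chr5:53480626-53487134, plus strand) encodes follistatin, a secreted protein that binds activins and keeps them from their receptors. Its level was 18.2, 20.4 and 16.1 FPKM with DMSO and 5.91, 6.48 and 6.65 FPKM with PD. The highest PD library was far below the lowest DMSO library, the mean was 2.87-fold lower with PD, and FST was the downregulated DEG (log2 fold change -1.38 ± 0.085, adjusted p = 1.51e-05). FSTL3 (chr19:676392-683392, plus strand), a follistatin relative that also binds activins and was the member with the highest FPKM with DMSO, was measured at 45.2, 44.4 and 50.3 FPKM with DMSO and 26.5, 28.9 and 27.5 FPKM with PD. The groups again did not overlap, and the mean was 1.69-fold lower (log2 fold change -0.73 ± 0.056, adjusted p = 3.73e-05). The activin subunit genes themselves were scarce. INHBA had 2, 5 and 0 fragments with DMSO and none in any PD library, and INHBB had 7 to 15 fragments per library, so neither was tested. INHBE, which encodes the activin βE subunit made by liver, was at 1.88 ± 0.176 FPKM with DMSO and 1.74 ± 0.158 FPKM with PD with overlapping libraries (interval of the log2 difference -0.26 to 0.12).

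The type I receptor genes ACVR1 and ACVR1B were called higher by small changes, and the call of ACVR1B did not hold under all settings. ACVR1, also known as ALK2, a receptor for BMPs and activins, rose from 3.37 ± 0.0324 to 4.04 ± 0.174 FPKM (log2 fold change 0.21 ± 0.053, adjusted p = 0.0123). ACVR1B, or ALK4, the activin type I receptor, rose from 5.98 ± 0.140 to 6.79 ± 0.308 FPKM (log2 fold change 0.16 ± 0.049, adjusted p = 0.0280), but its call was lost without DMSO replicate 1 or 2 or PD replicate 1 or 2, with adjusted p from 0.0746 to 0.0832, and with both other scalings. The type II receptors ACVR2A and ACVR2B had overlapping groups, at 0.752 ± 0.155 FPKM with DMSO and 0.873 ± 0.236 FPKM with PD for ACVR2A and 1.01 ± 0.171 FPKM with DMSO and 0.868 ± 0.0636 FPKM with PD for ACVR2B. The intervals of their log2 differences were -0.21 to 0.39 and -0.33 to 0.12.

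Among BMP ligands, BMP2 fell while BMP6 and BMP8B rose. BMP2 (chr20:6767686-6780246, plus strand), a ligand that with BMP6 induces hepcidin in the liver, was at 12.04, 12.8 and 13.4 FPKM with DMSO and 7.68, 7.97 and 7.75 FPKM with PD. All PD libraries lay below the DMSO libraries, with a mean 1.63-fold lower (log2 fold change -0.64 ± 0.049, adjusted p = 3.82e-05). BMP8B (chr1:39757182-39788865, minus strand), a BMP best known from germ cells and brown fat, was at 2.08, 2.02 and 2.17 FPKM with DMSO and 5.34, 5.21 and 5.40 FPKM with PD. It was the other upregulated DEG, with a ratio of means of 2.55 and groups far apart (log2 fold change 1.03 ± 0.053, adjusted p = 7.50e-06). BMP8B has a closely similar paralog, BMP8A, which was at 0.265 ± 0.109 FPKM with DMSO and 0.591 ± 0.0414 FPKM with PD and under the minimum, so that the split of fragments between the paralogs is uncertain. PPIE on the opposite strand shares 1.66% of the exon bases of BMP8B and was at 6.46 ± 0.161 FPKM with DMSO and 7.09 ± 0.269 FPKM with PD (SD, n = 3; adjusted p = 0.0698, limma). With upper quartile scaling the log2 fold change of BMP8B was 0.997 and it was no longer a DEG. BMP6 rose from 11.3 ± 1.17 to 16.5 ± 0.952 FPKM (log2 fold change 0.51 ± 0.075, adjusted p = 8.49e-04), staying just under 1.5-fold on the log2(FPKM + 1) scale. BMP4 had 6 to 9 fragments per library, and BMP7 had 1 or 2 with DMSO and none with PD, so both were under the minimum. BMP1, which despite its name is the protease that trims procollagens, rose from 13.04 ± 0.853 to 17.04 ± 0.596 FPKM (log2 fold change 0.36 ± 0.054, adjusted p = 8.94e-04).

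Shares within the families were compared as well. BMP2 made up 48.6% ± 1.71 of the summed FPKM of the listed BMP ligands with DMSO and 26.2% ± 0.569 with PD. BMP6 made up 42.9% ± 1.74 with DMSO and 55.5% ± 1.49 with PD (SD, n = 3). For each of the 5 family shares compared, including those of TGFB1 and TGFBR1 and the SMAD share given below, the 3 PD libraries did not overlap the 3 DMSO libraries. The two-sided exact permutation p was 0.10 for each and 0.10 after Benjamini-Hochberg adjustment over the 5. As this is the smallest p that 3 against 3 libraries can give, the test could not call any share. The shares are built from members called one by one in this report, and those of BMP2 and BMP6 are taken from the same sum. They therefore restate those changes and are not separate results.

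**Figure D3:**
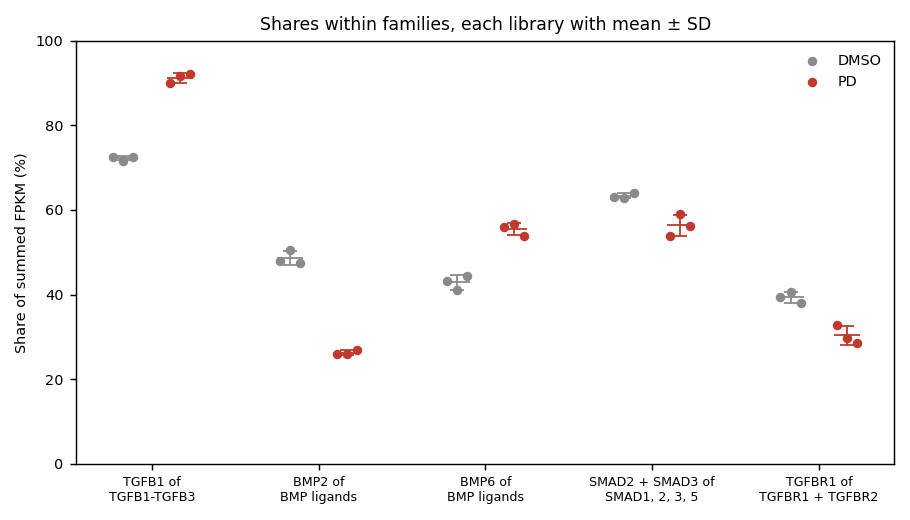
Share of summed FPKM (y axis, percent) held by TGFB1, BMP2, BMP6, SMAD2 with SMAD3, and TGFBR1 within their families, in each DMSO (grey) and PD (red) library, with mean ± SD. The share of TGFB1 lies at 71.6% to 72.5% with DMSO and at 90.0% to 92.2% with PD, and that of BMP2 at 47.4% to 50.5% and 25.8% to 26.9%.

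Among the BMP receptors, BMPR1A and BMPR1B, which are type I receptors, fell, in contrast to the type I receptor ACVR1 described above. BMPR1A fell from 5.02 ± 0.248 to 3.997 ± 0.293 FPKM (log2 fold change -0.27 ± 0.063, adjusted p = 0.00810). BMPR1B passed the minimum only through its DMSO libraries, where it had 95 to 97 fragments, and fell from 0.892 ± 0.0102 to 0.443 ± 0.145 FPKM (log2 fold change -0.40 ± 0.11, adjusted p = 0.0145). BMPR2, the BMP type II receptor, was at 3.97 ± 0.294 FPKM with DMSO and 4.38 ± 0.132 FPKM with PD with all PD libraries above all DMSO libraries but was not called (interval of the log2 difference -0.028 to 0.26). BAMBI, a truncated receptor that blocks signalling, was at 8.77 ± 0.0680 FPKM with DMSO and 9.29 ± 0.418 FPKM with PD, likewise not called despite separate groups.

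NOG (chr17:56593699-56595611, plus strand) encodes noggin, which binds BMPs outside the cell. It was measured at 9.79, 11.7 and 11.5 FPKM with DMSO and 5.44, 6.45 and 7.07 FPKM with PD. Every PD library was below every DMSO library, and the mean was 1.74-fold lower (log2 fold change -0.72 ± 0.098, adjusted p = 6.16e-04). GREM1, another BMP antagonist, was seen as a single fragment in a PD library and was not tested.

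Of the receptor-regulated SMADs, both of the TGF-β and activin branch fell, and of the BMP branch SMAD1 fell while SMAD5 was not called. SMAD2 fell from 6.09 ± 0.0900 to 3.99 ± 0.0929 FPKM (log2 fold change -0.51 ± 0.046, adjusted p = 8.20e-05). SMAD3 fell from 12.2 ± 0.252 to 8.67 ± 0.215 FPKM (log2 fold change -0.45 ± 0.040, adjusted p = 7.81e-05). SMAD1 fell from 2.09 ± 0.00812 to 1.66 ± 0.0816 FPKM (log2 fold change -0.22 ± 0.064, adjusted p = 0.0211), but its call was lost with any 1 of the DMSO replicates omitted, and without PD replicate 2 or 3, with adjusted p from 0.0524 to 0.067. SMAD5 was at 8.52 ± 0.371 FPKM with DMSO and 8.18 ± 0.929 FPKM with PD with overlapping libraries. SMAD2 and SMAD3 together made up 63.3% ± 0.589 of the summed FPKM of SMAD1, SMAD2, SMAD3 and SMAD5 with DMSO and 56.3% ± 2.57 with PD. SMAD4, the partner of all of them, was at 3.18 ± 0.399 FPKM with DMSO and 3.17 ± 0.276 FPKM with PD, and the interval of its log2 difference was -0.21 to 0.21. The sign of the difference of SMAD4 turned with the scaling, and that of SMAD5 turned without PD replicate 2 (log2 fold change 0.025).

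The inhibitory SMADs, which block receptors and SMAD complexes and are themselves induced by the pathway, were both lower. SMAD6 (chr15:66702236-66782849, plus strand), the inhibitor of BMP signalling above all, was at 9.25, 9.38 and 10.6 FPKM with DMSO and 4.96, 5.04 and 6.33 FPKM with PD. The groups did not overlap, and the mean was 1.79-fold lower (log2 fold change -0.74 ± 0.092, adjusted p = 3.87e-04). SMAD7 (chr18:48919853-48950965, minus strand), which acts on TGF-β and BMP receptors, fell from 9.29 ± 0.326 to 6.20 ± 0.0799 FPKM (log2 fold change -0.51 ± 0.044, adjusted p = 6.40e-05). The ubiquitin ligases that work with SMAD7 moved apart. SMURF1 fell from 11.8 ± 0.689 to 9.79 ± 0.0680 FPKM (log2 fold change -0.24 ± 0.049, adjusted p = 0.00419), and TRRAP, which overlaps 11.7% of its exon bases on the opposite strand, fell as well (log2 fold change -0.18, adjusted p = 0.00321). SMURF2 rose from 2.40 ± 0.127 to 2.92 ± 0.228 FPKM (log2 fold change 0.20 ± 0.069, adjusted p = 0.0379), a call that was lost without DMSO replicate 1 or 3 or PD replicate 1 or 3, with adjusted p from 0.0719 to 0.111, and also with both other scalings.

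ID proteins are inhibitors of basic helix-loop-helix factors and are classical BMP targets. ID1 (chr20:31605283-31606515, plus strand) was at 17.6, 18.6 and 19.2 FPKM with DMSO and 29.0, 27.2 and 29.7 FPKM with PD. All PD libraries were above all DMSO libraries, and the ratio of means was 1.55 (log2 fold change 0.61 ± 0.049, adjusted p = 4.69e-05). ID2 (chr2:8678845-8684461, plus strand) was at 0.315, 0.243 and 0.265 FPKM with DMSO and 0.552, 1.24 and 1.33 FPKM with PD. It passed the minimum only through its PD libraries, and rested on 9 to 12 fragments per DMSO library against 22, 48 and 48 in PD replicates 1, 2 and 3, so PD replicate 1 stood below the other PD libraries but above all DMSO libraries. The ratio of means was 3.80 (log2 fold change 0.66 ± 0.17, adjusted p = 0.0113), and the log2 fold change was 1.53 with a pseudocount of 0.1 and 1.76 by limma voom on fragments, where ID2 was a DEG. ID2-AS1 on the opposite strand shares 6.55% of its exon bases and was at 0.180 ± 0.0144 FPKM with DMSO and 0.381 ± 0.138 FPKM with PD. ID3 was at 18.4 ± 1.20 FPKM with DMSO and 19.7 ± 1.61 FPKM with PD with overlapping libraries, and ID4 had no row and was not analysed here.

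The promoters of SMAD6, SMAD7 and ID1 are shown because these genes are textbook targets of SMAD proteins and moved in opposite directions, the inhibitory SMADs down and ID1 up. The sequences run from upstream of the annotated start to shortly past it (RefSeq, GRCh38.p14), and SMAD7 is shown by the first of its 3 RefSeq promoters. Capitals mark letters searched on both strands, namely GTCTAGAC, the palindrome bound by SMAD3 and SMAD4, CAGAC (or GTCTG), the CAGA-type element of TGF-β targets, and GGAGCC (or GGCTCC), a GC-rich sequence that BMP SMADs can bind.
SMAD6, chr15:66701986-66702285, plus strand: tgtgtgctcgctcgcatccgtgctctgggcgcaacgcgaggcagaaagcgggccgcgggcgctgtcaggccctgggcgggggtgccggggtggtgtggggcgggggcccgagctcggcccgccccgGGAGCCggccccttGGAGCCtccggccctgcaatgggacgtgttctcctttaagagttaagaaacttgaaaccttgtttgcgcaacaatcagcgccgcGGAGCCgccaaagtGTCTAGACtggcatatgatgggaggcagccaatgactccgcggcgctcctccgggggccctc
SMAD7, chr18:48950916-48951215, minus strand: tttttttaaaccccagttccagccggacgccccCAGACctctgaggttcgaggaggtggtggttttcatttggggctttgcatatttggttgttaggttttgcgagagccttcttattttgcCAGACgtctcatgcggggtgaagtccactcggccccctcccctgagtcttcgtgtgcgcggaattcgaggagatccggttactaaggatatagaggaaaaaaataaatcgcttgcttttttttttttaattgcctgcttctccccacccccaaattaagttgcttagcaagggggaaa
ID1, chr20:31605039-31605338, plus strand: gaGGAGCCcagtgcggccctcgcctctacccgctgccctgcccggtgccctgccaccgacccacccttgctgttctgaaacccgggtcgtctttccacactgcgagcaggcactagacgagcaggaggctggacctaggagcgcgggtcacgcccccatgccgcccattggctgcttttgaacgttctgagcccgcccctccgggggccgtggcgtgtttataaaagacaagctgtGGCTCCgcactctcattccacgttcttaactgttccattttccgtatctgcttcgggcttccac

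The SMAD6 window held GTCTAGAC at positions -12 to -5 from the start, and GGAGCC at 3 places. The SMAD7 window shown held CAGAC at positions -217 to -213 and -128 to -124, and at least 1 of its windows not shown held GGAGCC or GGCTCC. The ID1 window held GGAGCC at positions -248 to -243 and GGCTCC at -14 to -9. No marked motif overlapped another. Over 35116 RefSeq promoter windows of the same length, GTCTAGAC was present in 0.202%, CAGAC or GTCTG in 45.3% and GGAGCC or GGCTCC in 36% of windows. The 41 members with a window had 79 windows, of which 41 held CAGAC or GTCTG and 37 held GGAGCC or GGCTCC. By member, GTCTAGAC was found in SMAD6 alone, CAGAC or GTCTG in at least 1 window of 25 members and GGAGCC or GGCTCC in that of 27. As a member can have several windows, the counts by member cannot be set against the shares of windows. These matches are letters in a window and describe no binding in these cells.

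Corepressors of SMAD complexes were led by SKI. SKI (chr1:2227388-2310213, plus strand), which recruits histone deacetylases to SMAD complexes, was at 18.5, 19.7 and 20.2 FPKM with DMSO and 32.6, 33.3 and 33.8 FPKM with PD. The groups were far apart, the ratio of means was 1.71, and SKI had the highest FPKM of the members with PD (log2 fold change 0.74 ± 0.041, adjusted p = 1.09e-05). SKIL, its relative and a TGF-β target, was at 6.81 ± 0.530 FPKM with DMSO and 7.52 ± 0.525 FPKM with PD and was not called. TGIF1, a homeobox corepressor, was at 5.36 ± 0.300 FPKM with DMSO and 4.89 ± 0.725 FPKM with PD and was not called either, but without PD replicate 2 it was called lower (log2 fold change -0.22, adjusted p = 0.0362).

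The order of the members by FPKM shifted with these changes. With DMSO, FSTL3 led at 46.6 ± 3.18 FPKM, followed by TGFBR2, SKI, ID1, ID3 and FST, and TGFB1 held place 22 of 46. From TGFBR2 to FST the means ran from 22.03 to 18.2 FPKM, and SKI, ID1, ID3 and FST did not differ beyond their spread. With PD, SKI led at 33.2 ± 0.607 FPKM, followed by ID1, FSTL3, TGFBR2, TGFB1 and ID3, and FST held place 20. ID1 and FSTL3 with PD, at 28.6 ± 1.33 and 27.6 ± 1.20 FPKM, lay within each other's spread.

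Other genes of the pathway were followed as a list of 58, of which 32 were tested. Of these, 10 (31.3%) were called higher and 17 (53.1%) called lower, against 31.9% and 26.2% of all genes tested, and 5 were not called. None was a DEG on the log2(FPKM + 1) scale, against 3.61% of all genes, and the median of their log2 fold changes was -0.19. By mean FPKM alone, ITGB8 was 2.02-fold lower with PD. Those with the largest rises were TWSG1, a BMP-binding protein, from 5.41 ± 0.577 to 9.58 ± 0.228 FPKM (log2 fold change 0.73 ± 0.071, adjusted p = 1.15e-04), and GDF11, an activin-like ligand, from 3.10 ± 0.181 to 5.66 ± 0.300 FPKM (log2 fold change 0.70 ± 0.061, adjusted p = 6.60e-05). GDF15, a stress-induced distant ligand of the family, rose from 100.3 ± 3.21 to 143 ± 8.60 FPKM (log2 fold change 0.50), and STUB1, a ubiquitin ligase that targets SMADs, rose with a log2 fold change of 0.33, though JMJD8 overlaps 42.5% of its exon bases. ITGB8, an integrin subunit that frees TGF-β from its latent complex, fell from 3.56 ± 0.529 to 1.76 ± 0.0389 FPKM (log2 fold change -0.72 ± 0.092, adjusted p = 4.57e-04). AMH, anti-Müllerian hormone, fell from 12.1 ± 0.677 to 7.45 ± 0.329 FPKM (log2 fold change -0.63 ± 0.055, adjusted p = 6.61e-05). E2F4, a partner of SMADs at repressed genes, and NEDD4L, a ligase for activated SMAD2 and SMAD3, fell with log2 fold changes of -0.54 and -0.42.

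A list of 25 genes commonly induced by TGF-β had 23 tested genes. Of these, 6 (26.1%) were higher, 7 (30.4%) were lower and 10 were not called, against 31.9% higher and 26.2% lower among all genes tested. The median of their log2 fold changes was -0.00048, and 3 of the 25 are members described above. CDKN1A, a cell cycle inhibitor that p53 also induces, rose from 50.1 ± 2.099 to 111 ± 8.41 FPKM and was a DEG (log2 fold change 1.13 ± 0.060, adjusted p = 8.46e-06). CCN1, a matrix protein that YAP also induces, fell from 75.5 ± 9.80 to 30.7 ± 2.05 FPKM and was a DEG as well (log2 fold change -1.26 ± 0.091, adjusted p = 2.93e-05). TGFBI, a secreted matrix protein, rose from 4.89 ± 0.277 to 7.86 ± 0.315 FPKM (log2 fold change 0.59). CDH2 and VIM, which encode N-cadherin and vimentin, rose with log2 fold changes of 0.50 and 0.50, VIM sharing 24.6% of its exon bases with antisense genes. THBS1, an activator of latent TGF-β that is also among the other pathway genes, and COL4A1, a basement membrane collagen, fell with log2 fold changes of -0.38 and -0.30. COL1A1, SNAI1, SNAI2, TAGLN and CCN2 were tested and not called.

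A list of 19 genes commonly induced by BMPs overlaps the members at 8 genes, and 12 of the 19 were tested. HAMP, the hepcidin gene, is on this list but had no row, so hepcidin was not analysed here. Of the 12 tested, 5 (41.7%) were higher, 4 (33.3%) were lower and 3 were not called, against 31.9% higher and 26.2% lower among all genes tested. The median of their log2 fold changes was 0.081. Among the 5 higher, ID2 passed the minimum only through its PD libraries, where it was high. As the list also holds members counted above, these shares are not a separate result. ID1 and ID2 were among the higher and SMAD6, SMAD7 and NOG among the lower, as given above. Outside the members, the homeobox genes MSX1 and MSX2 rose, MSX1 from 2.98 ± 0.229 to 6.02 ± 0.256 FPKM (log2 fold change 0.82 ± 0.063, adjusted p = 3.83e-05) and MSX2 from 1.76 ± 0.184 to 3.49 ± 0.157 FPKM (log2 fold change 0.71 ± 0.072, adjusted p = 1.39e-04). HEY1, a Notch and BMP target, rose from 2.11 ± 0.152 to 2.71 ± 0.335 FPKM (log2 fold change 0.25 ± 0.084, adjusted p = 0.0352), a call that was lost without DMSO replicate 1 or 3 or PD replicate 3, with adjusted p from 0.0814 to 0.106. TBX3, a T-box repressor, fell from 10.5 ± 0.0849 to 9.10 ± 0.559 FPKM (log2 fold change -0.19 ± 0.051, adjusted p = 0.0156).

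The calls of the members with a change of at least 1.5-fold did not turn on the settings tried. All 11 kept their direction and their call under each of 12 alternatives, which were another pseudocount, no minimum, 2 other scalings, limma voom on fragments, a replicate block and the omission of each library. ID2 was the gene whose size moved most. In all, exons of 18 of the 40 tested members overlap those of another annotated gene, among them TGFB1, BMP8B and ID2 of these 11. Since the library kit did not mark strand, fragments from genes on opposite strands cannot be told apart there.

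**Figure D4:**
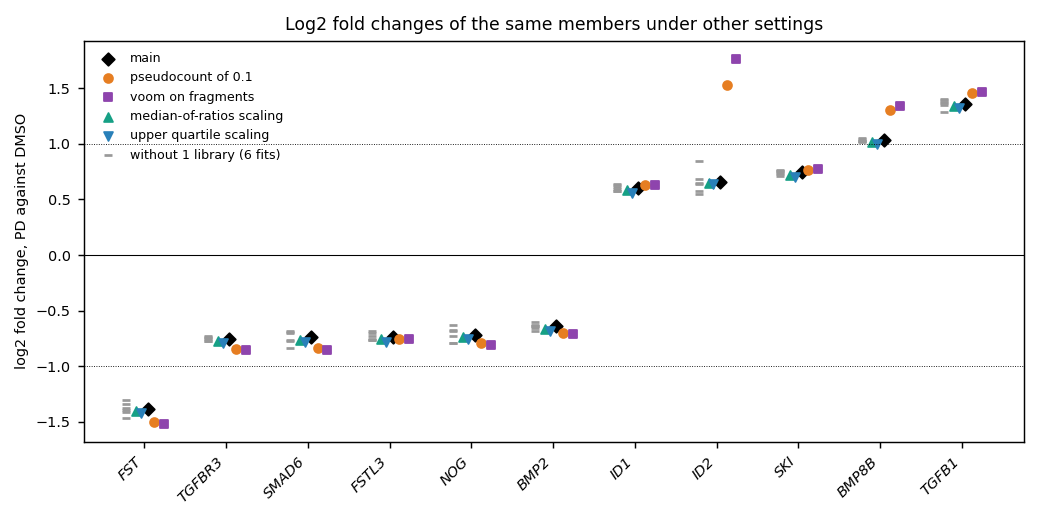
Log2 fold change (y axis, PD against DMSO) of the 11 members called and changed by at least 1.5-fold on the log2(FPKM + 1) scale. Black marks the main fit on that scale, other colours mark other settings, and grey dashes mark the 6 fits that each omit 1 library. Dotted lines lie at 2-fold. All points of a gene lie on the same side of 0, and ID2 spans the widest range, up to 1.76 by voom on fragments.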

How the data were processed

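The series holds 6 poly(A) RNA libraries of cells labelled HepG2, 3 treated with PD and 3 with DMSO, assigned by the sample labels. Per the labels and the methods, the authors made paired-end libraries with a NEBNext Ultra kit, aligned reads to hg38 with HISAT2, counted them with HTSeq 0.6.0 and converted the counts to FPKM. The FPKM that the authors deposited, 1 table of 28563 genes, were used as given, and 28161 identifiers matched a symbol in GENCODE release 44. The annotation and strand setting of the counting are not given in the sources used here. No gene of the table was at 0 in all 6 libraries.

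The members and the gene lists were chosen with earlier results of these data known. PD was compared with DMSO with limma 3.58.1 (R 4.3.3, trended prior variance) on log2(FPKM + 1) of the 14400 genes averaging 0.5 FPKM or more over all libraries, with Benjamini-Hochberg adjustment. Intervals of differences are unadjusted 95% intervals. Members with a change of at least 1.5-fold were given in every library, and of each other list the 4 largest called changes per direction were named, some of which are not reported here. APOA1 and the other markers, and the genes named as not called, follow the lists or were named after their values were seen. Whole fragments were worked back from the FPKM steps (tolerance 0.001 of a fragment, 99.7% to 99.8% of the totals) with pandas 2.3.3, and between 13468 and 13858 genes per library had under 10 fragments, where counting error is large. No pair of libraries was a duplicate, with a chi-square per gene of 2.30 to 3.78 within treatments. The fits were tested on simulated data, with changes of more than 2-fold in a small set of genes of higher FPKM. That test does not cover smaller changes or genes of low FPKM. Alternatives were a pseudocount of 0.1, no minimum, median-of-ratios and upper quartile scaling, limma voom on genes with at least 10 fragments in 3 libraries, a replicate block, and the omission of each library in turn.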

Additional observations from a re-analysis of the deposited data

How the results depend on the processing

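Over 60 named genes and 12 alternatives, 681 of 720 values kept their direction and side of the threshold, 28 were no longer called, 2 became called and 9 changed sign. The genes that changed sign were never called. They were LTBP3 (log2 fold change -0.0011 with median-of-ratios and -0.021 with upper quartile scaling, and -0.016 without DMSO replicate 2 in a range up to 0.064 when 1 library was omitted), SMAD4 (-0.019 and -0.035 with these scalings, and -0.064 to -0.0083 without DMSO replicate 1 or 3 or PD replicate 1, in a range up to 0.072) and SMAD5 (0.025 without PD replicate 2, in a range from -0.12). These scalings moved the median of all genes by -0.019 and -0.036 in log2. The main fit is the limma fit on log2(FPKM + 1) used for the results above. Upregulated member DEGs were 1 with upper quartile scaling (2 in the main fit), as BMP8B dropped just below 2-fold. Downregulated member DEGs were 2 by voom (1 in the main fit), with BMPR1B added. DEGs over all genes numbered 520 in the main fit, 1248 (8.67%) with a pseudocount of 0.1 and 1735 (11.5%) by voom. Member DEGs numbered 3, 4 and 5 in these fits. These counts come from the deposited FPKM and are not the count of the paper, which used DESeq2. Voom also used another minimum and tested 15068 genes, 42 members among them. With the replicate number as a block, 9 members were higher and 15 lower (11 and 16 in the main fit). In that limma fit ACVR1B, SMURF2 and SMAD1 lost their call at adjusted p of 0.0631, 0.0722 and 0.0509, and HEY1 at 0.0707. Deviations of libraries of the same number had correlations of -0.027, -0.0046 and 0.0898, and those of other pairs ran from -0.0835 to 0.0847. With 3 libraries per treatment these values cannot exclude a pairing, and the labels give only a number. LTBP2, INHBA, INHBB, BMP4, BMP7 and GREM1, at 31 fragments or fewer per library, lay under the minimum and are given by their fragments alone.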
